A study of Mus musculus with 14 samples.

Results

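The 36 genes described here make up the machinery with which the endoplasmic reticulum (ER) folds and clears proteins and the unfolded protein response that adjusts it. They were taken by gene symbol from a list of ER chaperones, disulfide enzymes, degradation factors, translocation factors and stress sensors, and all 36 were found among the 31274 symbols of the table. RNA was sequenced from the whole uterus of intact, untreated FVB/N mice at 2 months of age. The 4 groups were mice labelled HIF2A cKO at estrus (3 libraries), HIF2A cKO at diestrus (4 libraries), wild type (WT) at estrus (3 libraries) and WT at diestrus (4 libraries). Diestrus is the luteal stage of the mouse cycle, when progesterone is high, and estrus is the stage around ovulation, after the rise in estrogen. HIF2A is an oxygen-regulated transcription factor encoded by Epas1. The labels name neither the Cre line nor the deleted exons, so the cells in which the gene was to be removed are not known. A library is called below by its group and the replicate number in its label.

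The ER folds the proteins that a cell secretes or places in its membranes. When unfolded proteins accumulate there, the sensors IRE1, PERK and ATF6 leave the chaperone BiP and start the unfolded protein response. IRE1 splices the mRNA of the transcription factor XBP1, PERK slows translation while favouring that of ATF4, and ATF6 is cut in the Golgi to release a transcription factor. Together they raise the transcription of chaperones, of translocation factors and of the degradation pathway that returns misfolded proteins to the cytosol. Secretory cells, such as those of the uterine epithelium and glands, use the same genes to meet a high demand for protein export.

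The levels are FPKM (fragments per kilobase of transcript and per sequenced fragments of the library), a unit that allows a comparison between genes per length. Differences were tested with limma on log2(FPKM + 1) in a fit of all 14 libraries over 14278 genes, and a change was called at a Benjamini-Hochberg adjusted p under 0.05. All 36 member genes passed the filter on low values, and none was at 0 in any library. Deposited FPKM summed to between 437879 and 497688 per library, and libraries of the same group correlated across genes with r from 0.956 to 0.994. The table holds no counts, and the sequencing depth is unknown. The gene that checks the genotype label, Epas1, did not show a lower level under the HIF2A cKO label, with 39.5 ± 4.44 FPKM (SD, n = 4) against 34.8 ± 5.82 (n = 4) in WT at diestrus, and an exact permutation test, two-sided, gave p = 0.257. At estrus it stood at 41.2 ± 4.01 FPKM (SD, n = 3) in HIF2A cKO and 32.9 ± 1.56 (n = 3) in WT, and the same exact test gave p = 0.1, its minimum for groups of 3. With the deleted exons and the targeted cells unknown, a level per gene in whole uterus cannot decide whether the label is right. Every direction between genotypes below therefore rests on the labels. No label says that the libraries came from separate animals, so that all p-values refer to the scatter among these libraries, part or all of which may be technical.

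The module stood high in some of the HIF2A cKO libraries at diestrus. The summed FPKM of the 36 genes was 5349, 5704, 3071 and 4544 in HIF2A cKO diestrus replicates 1 to 4, against 2945, 4155, 2987 and 2928 in WT diestrus replicates 1 to 4. Abundant genes such as Calr and Hspa5 weigh most in this sum. Each gene was also taken as log2(FPKM + 1) minus its WT diestrus mean. The median of the 36 was then 0.64, 0.72, -0.034 and 0.43 in HIF2A cKO diestrus, and -0.071, 0.29, -0.13 and -0.054 in WT diestrus. At estrus the sum was 2510, 2552 and 2610 in HIF2A cKO and 2443, 2272 and 2597 in WT. The estrus libraries of both genotypes thus lay close together, while the diestrus libraries spread widely. HIF2A cKO diestrus replicate 3 stood near the WT libraries, and WT diestrus replicate 2 was above every other WT library. Among the 8 diestrus libraries, HIF2A cKO replicate 2 held the highest value for 29 of the 36 genes and replicate 1 for 5. The coefficient of variation of a member gene had a median of 24.7% in HIF2A cKO diestrus, 16.9% in WT diestrus, 5.41% in HIF2A cKO estrus and 7.64% in WT estrus. Over all tested genes the medians were 13.4%, 12.0%, 6.11% and 6.80% in the same 4 groups. In whole uterus, fewer cells of a type and less RNA per cell cannot be told apart.

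**Figure D1:**
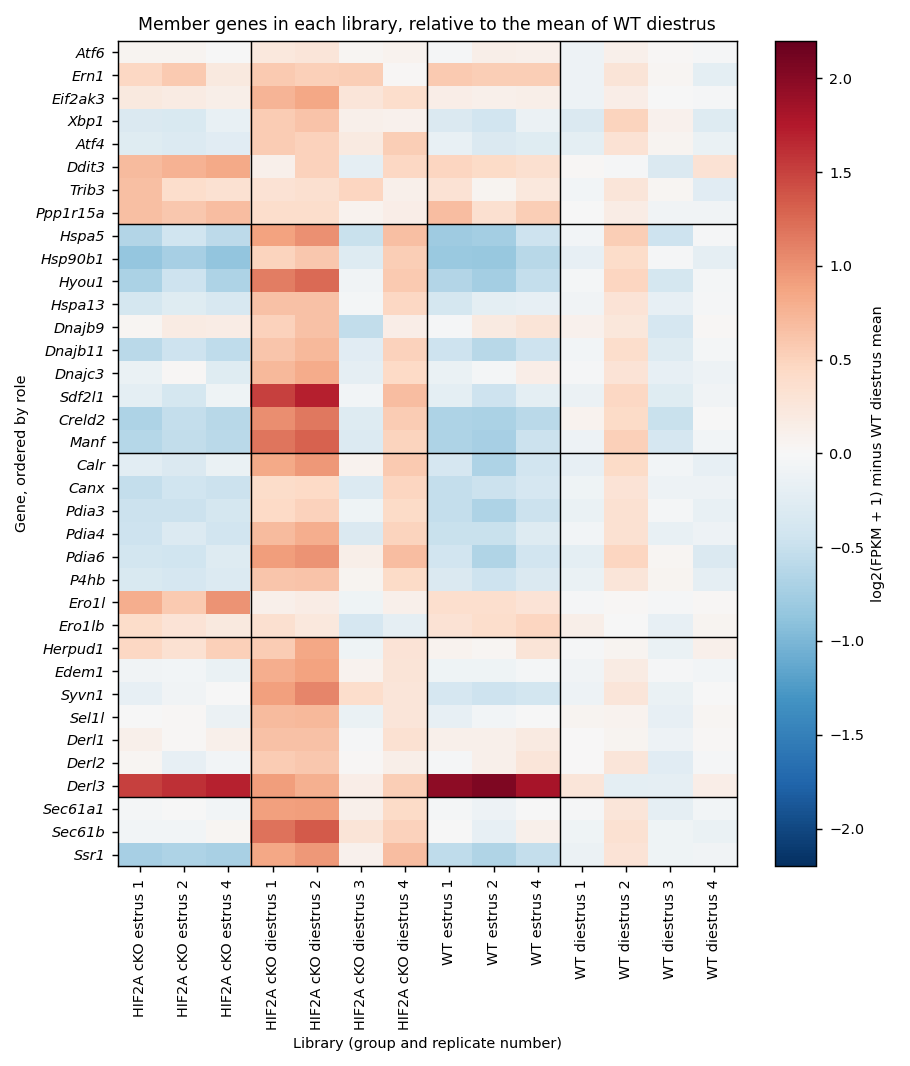
Each row is a member gene, ordered by role, and each column a library. Color gives log2(FPKM + 1) minus the mean of the 4 WT diestrus libraries. HIF2A cKO diestrus replicates 1, 2 and 4 are mostly red, replicate 3 is near white, and most chaperone rows are blue in all 6 estrus libraries, while Derl3 is red there.

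The response is known to act through short promoter elements, some of which were found in part of these genes. The sites are shown because genes of all 5 roles were called higher in HIF2A cKO at diestrus. RefSeq promoter windows (GRCm38.p6, 250 bases before to 50 after the start) were matched for 30 of the 36 genes. Atf6, Hyou1, Hspa13, Manf, Derl1 and Sec61a1 were not matched. The ER stress response element (ERSE) is CCAAT and CCACG with 9 bases of any kind between them, and is bound by ATF6 together with NF-Y. It was searched on both strands and found in 10 of the 30 genes (33.3%), against 37 of 27025 genes in the whole promoter table (0.137%). The sites below are read 5′ to 3′ on the strand that carries the element, with the fixed letters in capitals and the spacer in lower case.
Hspa5: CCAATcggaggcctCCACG
Pdia6: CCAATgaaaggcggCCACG
Calr: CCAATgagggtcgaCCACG
Canx: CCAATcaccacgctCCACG
Dnajc3: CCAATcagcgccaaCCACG
Creld2: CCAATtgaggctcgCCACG
Syvn1: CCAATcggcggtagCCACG
Derl3: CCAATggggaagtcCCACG
Ero1lb: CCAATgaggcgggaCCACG
The tenth gene with an ERSE, Hsp90b1, held 2 of them. The spacers differ in sequence, and the sites lie between 26 and 212 bases before the start. ERSE-II, which is ATTGG and CCACG with 1 base between them, was found in Dnajb11 and Herpud1 (2 of 30, or 6.67%, against 0.0444% of all genes). The UPRE core TGACGTGG, an XBP1 site, was in 0 of the 30 windows, against 0.714% of all genes. The CARE element TGATGNAA, read by ATF4 and CHOP, was in Herpud1 and Trib3 (6.67%, against 4.51% of all genes), and the CRE TGACGTCA was in Ppp1r15a (3.33%, against 2.03%). A match is a description of the letters in the window and no evidence that a factor was bound.

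The windows of 3 genes show where the element sits. Hspa5 is the textbook target of the response, Syvn1 was among the genes whose diestrus libraries did not overlap between genotypes, and Derl3 was called higher at estrus, when most of the genes called in HIF2A cKO were lower. Each line gives the 250 bases before the RefSeq start on the gene's own strand (Hspa5 at chr2:34771840-34772089, plus strand, Syvn1 at chr19:6046326-6046575, plus strand and Derl3 at chr10:75893148-75893397, plus strand, GRCm38.p6), with the ERSE letters in capitals. In Derl3 the element lies on the opposite strand, so that its letters appear as the reverse complement.
Hspa5: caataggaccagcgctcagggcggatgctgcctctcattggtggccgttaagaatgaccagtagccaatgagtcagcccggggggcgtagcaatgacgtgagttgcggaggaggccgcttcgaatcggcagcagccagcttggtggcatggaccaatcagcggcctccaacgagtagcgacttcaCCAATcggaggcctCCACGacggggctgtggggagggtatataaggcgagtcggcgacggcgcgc
Syvn1: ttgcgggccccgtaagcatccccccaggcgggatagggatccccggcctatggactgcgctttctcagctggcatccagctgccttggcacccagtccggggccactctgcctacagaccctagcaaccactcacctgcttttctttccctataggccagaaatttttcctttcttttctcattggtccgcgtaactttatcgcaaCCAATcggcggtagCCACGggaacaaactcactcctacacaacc
Derl3: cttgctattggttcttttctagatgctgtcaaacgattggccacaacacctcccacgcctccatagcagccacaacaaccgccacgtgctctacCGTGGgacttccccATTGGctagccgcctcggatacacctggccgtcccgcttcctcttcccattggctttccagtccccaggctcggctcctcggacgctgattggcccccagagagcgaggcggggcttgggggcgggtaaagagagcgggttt

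The genes with and without an ERSE had overlapping ranges of genotype differences at diestrus, 0.0027 to 0.68 log2 with and 0.071 to 0.96 log2 without. There the log2 difference between HIF2A cKO and WT had a median of 0.56 in the 10 genes with an ERSE (4 called, all higher) and 0.40 in the 20 matched genes without (8 called, all higher). In the 8 tested genes outside the module that held an ERSE the median was 0.0035, with 0 called higher and 1 lower. Among all tested genes 13.8% were called higher and 10.0% lower in this comparison. No test was made between these sets.

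Among the sensors and transcription factors, 3 of 8 were called higher in HIF2A cKO at diestrus and none lower. The background was 13.8% of all tested genes called higher and 10.0% called lower in that comparison. Eif2ak3 encodes PERK, the kinase that phosphorylates eIF2 alpha, and stood at 14.8, 16.1, 10.3 and 11.4 FPKM in the HIF2A cKO diestrus libraries, against 7.70, 9.46, 8.37 and 8.31 FPKM in the WT diestrus libraries. Every HIF2A cKO library was above every WT library, and the difference came to 0.56 log2 (SE 0.113, adjusted p = 0.00686). At estrus Eif2ak3 stood at 9.95, 9.72 and 9.33 FPKM in the HIF2A cKO estrus libraries, against 9.43, 9.15 and 9.27 FPKM in the WT estrus libraries, with overlapping groups and a difference of 0.053 log2 (SE 0.13, adjusted p = 0.983). Within HIF2A cKO the gene was lower at estrus than at diestrus without overlap, with a change of -0.38 log2 (SE 0.122, adjusted p = 0.0147).

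Ern1 encodes IRE1 alpha, the kinase and ribonuclease that splices Xbp1 mRNA. Its level was 12.9, 12.6, 12.6 and 8.56 FPKM in the HIF2A cKO diestrus libraries, against 7.64, 10.4, 8.69 and 7.11 FPKM in the WT diestrus libraries. HIF2A cKO replicate 4 lay among the WT libraries and the other 3 lay above all of them, and the difference came to 0.42 log2 (SE 0.134, adjusted p = 0.0402). At estrus Ern1 stood at 11.8, 13.0 and 9.84 FPKM in the HIF2A cKO estrus libraries, against 13.0, 12.6 and 12.6 FPKM in the WT estrus libraries, and these groups overlapped. In WT every estrus library was above every diestrus library, with a change of 0.55 log2 (SE 0.144, adjusted p = 0.00567), and the change in HIF2A cKO was -0.0017 log2 (SE 0.144, adjusted p = 0.993). The interaction of Ern1, -0.55 log2 (SE 0.204, adjusted p = 0.211), did not pass. Xbp1, the target of that splicing, stood at 153, 161, 112 and 110.1 FPKM in the HIF2A cKO diestrus libraries, against 82.6, 146, 111 and 85.3 FPKM in the WT diestrus libraries. HIF2A cKO replicates 1 and 2 were above all WT libraries and replicates 3 and 4 within the WT range, and the difference of 0.35 log2 (SE 0.177, adjusted p = 0.162) did not pass. At estrus Xbp1 stood at 83.2, 82.1 and 92.6 FPKM in the HIF2A cKO estrus libraries, against 82.8, 77.0 and 94.8 FPKM in the WT estrus libraries. It was lower at estrus than at diestrus in HIF2A cKO, with a change of -0.62 log2 (SE 0.191, adjusted p = 0.013), with no overlap. A value per gene does not separate the spliced from the unspliced form of Xbp1.

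Atf4, the transcription factor translated when eIF2 alpha is phosphorylated, stood at 145, 140.1, 112 and 144 FPKM in the HIF2A cKO diestrus libraries, against 84.0, 123, 102 and 88.2 FPKM in the WT diestrus libraries. HIF2A cKO replicate 3 lay below WT replicate 2 and the other 3 above all WT libraries, and Atf4 was called higher in HIF2A cKO by 0.45 log2 (SE 0.113, adjusted p = 0.015). At estrus it stood at 81.1, 79.2 and 82.9 FPKM in the HIF2A cKO estrus libraries, against 87.9, 78.4 and 81.1 FPKM in the WT estrus libraries, with overlap. In HIF2A cKO all 3 estrus libraries were below all diestrus libraries, with a change of -0.73 log2 (SE 0.122, adjusted p = 0.00022). The change in WT had the same sign but did not pass, at -0.25 log2 (SE 0.122, adjusted p = 0.0959). The interaction of Atf4 was -0.47 log2 (SE 0.173, adjusted p = 0.207).

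Ddit3, which encodes the ATF4-dependent factor CHOP, went the other way over the cycle. At estrus it stood at 25.3, 26.8 and 28.1 FPKM in the HIF2A cKO estrus libraries, against 21.6, 20.8 and 19.9 FPKM in the WT estrus libraries, and at diestrus at 16.7, 22.1, 13.1 and 21.2 FPKM in the HIF2A cKO diestrus libraries, against 15.6, 14.9, 12.1 and 19.2 FPKM in the WT diestrus libraries. Every estrus library was above every diestrus library of its genotype, and Ddit3 was called higher at estrus by 0.55 log2 (SE 0.162, adjusted p = 0.0101) in HIF2A cKO and 0.42 log2 (SE 0.162, adjusted p = 0.0422) in WT. At estrus the HIF2A cKO libraries were all above the WT libraries, yet the difference of 0.35 log2 (SE 0.173, adjusted p = 0.727) did not pass. Ppp1r15a encodes GADD34, which returns the phosphatase to eIF2 alpha and ends the translational block. It stood at 19.2, 18.2 and 19.4 FPKM in the HIF2A cKO estrus libraries, against 19.5, 15.3 and 17.7 FPKM in the WT estrus libraries, and at 15.8, 15.7, 12.5 and 13.1 FPKM in the HIF2A cKO diestrus libraries, against 11.7, 13.3, 11.1 and 11.1 FPKM in the WT diestrus libraries. As with Ddit3, the stages did not overlap in either genotype, and Ppp1r15a was called higher at estrus by 0.39 log2 (SE 0.099, adjusted p = 0.00411) in HIF2A cKO and 0.53 log2 (SE 0.099, adjusted p = 0.000667) in WT. Atf6, at 10.3 to 13.7 FPKM over all libraries, and Trib3, a CHOP target at 0.857 to 2.48 FPKM, passed in none of the 5 comparisons.

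Of the 3 sensor calls between genotypes at diestrus, that of Eif2ak3 held with any 1 library left out. Atf4 was lost without HIF2A cKO diestrus replicate 2 (adjusted p = 0.0502, and 1.96e-05 to 0.0796 over all alternatives). Ern1 was lost without HIF2A cKO diestrus replicate 1, 2 or 3, HIF2A cKO estrus replicate 1, WT diestrus replicate 1, 3 or 4, or any WT estrus library, with an adjusted p of up to 0.117. The WT rise of Ddit3 at estrus was lost without HIF2A cKO diestrus replicate 1, WT diestrus replicate 1, 2 or 3, or any 1 of the 6 estrus libraries, with an adjusted p of up to 0.109.

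The HSP70-type chaperones and their partners had 9 of 10 genes called lower at estrus within HIF2A cKO, with a median change of -1.12 log2, the lowest of the 5 roles. Among all tested genes 36.5% were called lower in that comparison. At diestrus 2 of the 10 were called higher in HIF2A cKO, not far from the 13.8% of all tested genes. Hspa5 encodes BiP, the ER HSP70 chaperone that also holds the sensors inactive, and stood at 637, 692, 245 and 541 FPKM in the HIF2A cKO diestrus libraries, against 330.1, 501, 249 and 336 FPKM in the WT diestrus libraries. HIF2A cKO replicate 3 was the lowest of these 8 libraries and the other 3 were above all WT libraries, and the difference of 0.52 log2 (SE 0.285, adjusted p = 0.195) did not pass. With the replicate number as a block it passed (adjusted p = 0.0303), and with the block in the diestrus libraries alone it did not (0.0786). At estrus Hspa5 stood at 220.1, 251 and 229 FPKM in the HIF2A cKO estrus libraries, against 199.8, 203 and 249 FPKM in the WT estrus libraries, with overlap. It was called lower at estrus in HIF2A cKO with a change of -1.07 log2 (SE 0.308, adjusted p = 0.00859), although HIF2A cKO diestrus replicate 3 lay within the estrus range. In WT the change of -0.66 log2 (SE 0.308, adjusted p = 0.0825) did not pass.

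Hsp90b1 encodes GRP94, the HSP90 of the ER, and stood at 458, 496, 269.9 and 479 FPKM in the HIF2A cKO diestrus libraries, against 290.0, 433, 320.1 and 285 FPKM in the WT diestrus libraries. HIF2A cKO replicate 3 was again the lowest, and the difference of 0.34 log2 (SE 0.182, adjusted p = 0.186) did not pass. At estrus it stood at 180.0, 197 and 179 FPKM in the HIF2A cKO estrus libraries, against 185, 182 and 213 FPKM in the WT estrus libraries. All estrus libraries were below all diestrus libraries in both genotypes, and Hsp90b1 was called lower with a change of -1.16 log2 (SE 0.197, adjusted p = 0.000238) in HIF2A cKO and -0.76 log2 (SE 0.197, adjusted p = 0.0056) in WT. Dnajb11, a BiP cochaperone of the DNAJ type, stood at 77.3, 82.9, 42.2 and 71.3 FPKM in the HIF2A cKO diestrus libraries, against 48.1, 65.5, 41.1 and 48.7 FPKM in the WT diestrus libraries. HIF2A cKO replicates 1, 2 and 4 were above all WT libraries and replicate 3 was below all but 1 of them. The difference of 0.40 log2 (SE 0.184, adjusted p = 0.129) passed with the block over all libraries (adjusted p = 0.0203) but not in the diestrus libraries alone (0.0646). At estrus the gene stood at 32.7, 36.2 and 33.8 FPKM in the HIF2A cKO estrus libraries, against 36.1, 32.6 and 36.4 FPKM in the WT estrus libraries. It was called lower at estrus without overlap with a change of -0.93 log2 (SE 0.199, adjusted p = 0.00127) in HIF2A cKO and -0.51 log2 (SE 0.199, adjusted p = 0.0441) in WT.

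Hyou1, an ER chaperone of the HSP110 family that exchanges nucleotide on BiP, had the largest fall of this role in HIF2A cKO. At diestrus it stood at 99.6, 109, 43.1 and 68.0 FPKM in the HIF2A cKO diestrus libraries, against 44.0, 63.3, 34.4 and 44.0 FPKM in the WT diestrus libraries, and at estrus at 27.5, 32.6 and 28.1 FPKM in the HIF2A cKO estrus libraries, against 28.7, 26.4 and 31.0 FPKM in the WT estrus libraries. The stages did not overlap in either genotype, and Hyou1 was called lower with a change of -1.33 log2 (SE 0.268, adjusted p = 0.000851) in HIF2A cKO, while the WT change of -0.64 log2 (SE 0.268, adjusted p = 0.0557) did not pass. The genotype difference at diestrus, 0.72 log2 (SE 0.248, adjusted p = 0.052), did not pass, but it did with the replicate number as a block (adjusted p = 0.00671, or 0.0307 with the block in the diestrus libraries alone). The interaction of Hyou1 was -0.69 log2 (SE 0.379, adjusted p = 0.357). Manf, a secreted stress protein that binds BiP, stood at 111, 121, 38.9 and 68.0 FPKM in the HIF2A cKO diestrus libraries, against 44.5, 70.1, 37.0 and 46.4 FPKM in the WT diestrus libraries. Replicates 1 and 2 of HIF2A cKO were above all WT libraries and replicate 4 below WT replicate 2, and the difference of 0.67 log2 (SE 0.292, adjusted p = 0.108) passed with the block over all libraries (adjusted p = 0.0259) but not in the diestrus libraries alone (0.0618). At estrus Manf stood at 30.7, 32.7 and 31.5 FPKM in the HIF2A cKO estrus libraries, against 29.9, 28.7 and 34.6 FPKM in the WT estrus libraries, below every diestrus library of its genotype, and was called lower in HIF2A cKO with a change of -1.26 log2 (SE 0.315, adjusted p = 0.00372), while the WT change of -0.62 log2 (SE 0.315, adjusted p = 0.109) did not pass. The interaction of Manf was -0.64 log2 (SE 0.446, adjusted p = 0.469).

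Sdf2l1, a partner of the ER DNAJ proteins, had the largest genotype difference of all 36 genes at diestrus. It stood at 73.7, 85.2, 24.1 and 41.2 FPKM in the HIF2A cKO diestrus libraries, against 23.1, 35.2, 21.0 and 23.9 FPKM in the WT diestrus libraries. Replicates 1 and 2 of HIF2A cKO held more than any other library, replicate 4 was above all WT libraries, and replicate 3 was below WT replicate 2. The difference came to 0.96 log2 (SE 0.309, adjusted p = 0.0408). At estrus Sdf2l1 stood at 21.5, 19.1 and 23.8 FPKM in the HIF2A cKO estrus libraries, against 21.6, 18.2 and 21.6 FPKM in the WT estrus libraries, with a difference of 0.062 log2 (SE 0.357, adjusted p = 0.994). Hspa13, an HSP70-like ATPase of the microsomes, stood at 28.4, 28.4, 17.3 and 24.8 FPKM in the HIF2A cKO diestrus libraries, against 16.8, 22.1, 15.6 and 17.4 FPKM in the WT diestrus libraries, with replicate 3 of HIF2A cKO inside the WT range and the other 3 above it. It was called higher in HIF2A cKO by 0.43 log2 (SE 0.142, adjusted p = 0.0458). At estrus Hspa13 stood at 13.4, 14.6 and 13.8 FPKM in the HIF2A cKO estrus libraries, against 13.4, 15.3 and 15.6 FPKM in the WT estrus libraries, and these groups overlapped. The Sdf2l1 call was lost without HIF2A cKO diestrus replicate 1 or 2, WT diestrus replicate 1, 3 or 4, or any 1 of the 6 estrus libraries (adjusted p of up to 0.129). Hspa13 was lost without the same libraries and without HIF2A cKO diestrus replicate 4 (up to 0.142). The WT fall of Dnajb11 was lost without HIF2A cKO diestrus replicate 4, WT diestrus replicate 1, 2 or 4, or any 1 of the 6 estrus libraries (up to 0.124). Of the other 3 genes, Creld2 and the cochaperone Dnajc3 were called lower at estrus in HIF2A cKO (-1.22 and -0.57 log2), and Dnajb9 passed in no comparison. Dnajc3 was lost there without HIF2A cKO diestrus replicate 1 or 2 or HIF2A cKO estrus replicate 1 or 4 (up to 0.0857).

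**Figure D2:**
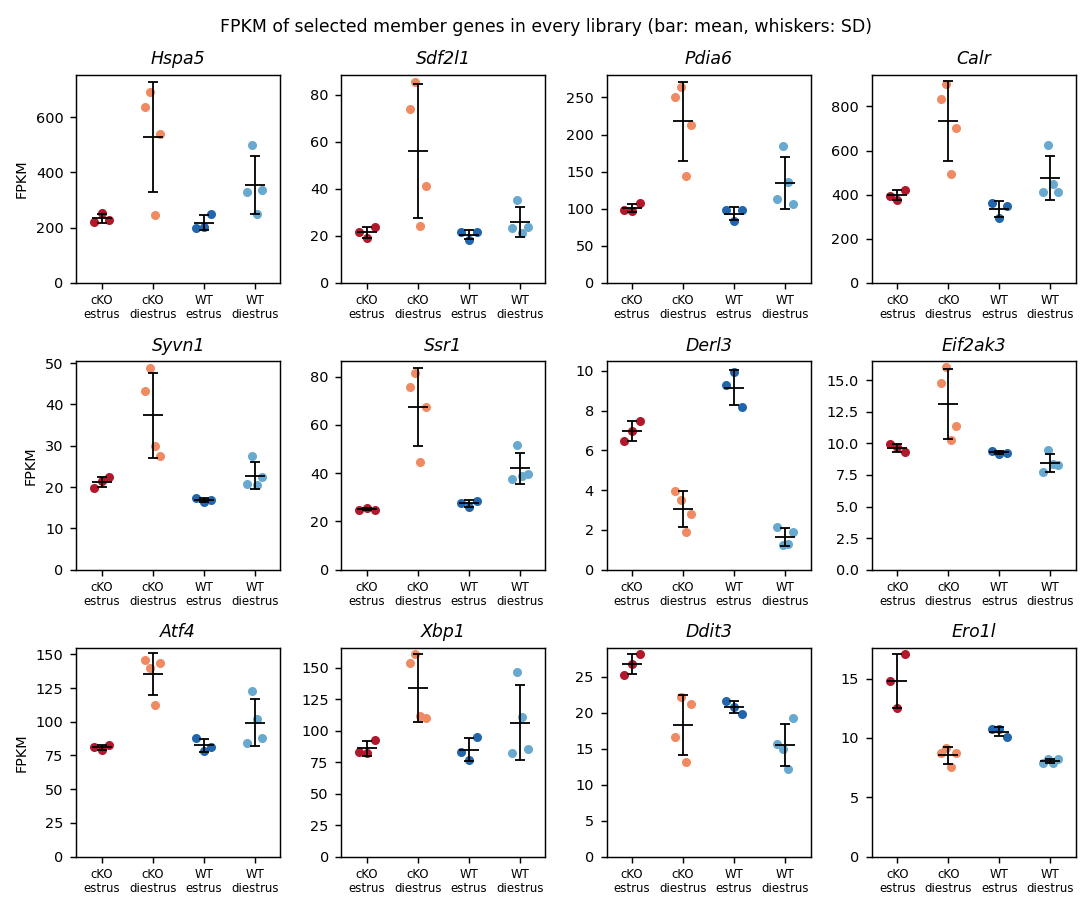
FPKM of 12 member genes in every library, with the mean as a bar and the SD as whiskers (n = 3 at estrus, n = 4 at diestrus), in the order HIF2A cKO estrus, HIF2A cKO diestrus, WT estrus, WT diestrus. The HIF2A cKO diestrus points of Hspa5 and Sdf2l1 spread widely (245 to 692 and 24.1 to 85.2 FPKM), and Derl3, Ddit3 and Ero1l are higher at estrus than at diestrus in both genotypes.

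Calreticulin and calnexin are lectins that hold glycoproteins during folding, and the PDI enzymes and ERO1 oxidases form disulfide bonds. Of these 8 genes, 3 were called higher in HIF2A cKO at diestrus, against 13.8% of all tested genes. Calr (calreticulin) stood at 834, 904, 492 and 700.3 FPKM in the HIF2A cKO diestrus libraries, against 413, 624, 449 and 413 FPKM in the WT diestrus libraries. In HIF2A cKO, replicates 1, 2 and 4 were above all WT libraries and replicate 3 below WT replicate 2, and the difference came to 0.61 log2 (SE 0.182, adjusted p = 0.0303). At estrus Calr stood at 396, 375 and 422 FPKM in the HIF2A cKO estrus libraries, against 363, 293 and 347 FPKM in the WT estrus libraries, with every HIF2A cKO library above every WT library, but the difference of 0.25 log2 (SE 0.21, adjusted p = 0.885) did not pass. Pdia6, a disulfide isomerase that also attenuates the sensors, stood at 251, 264, 144 and 213 FPKM in the HIF2A cKO diestrus libraries, against 113, 184, 136 and 106 FPKM in the WT diestrus libraries. The same 3 HIF2A cKO libraries were above all WT libraries, and the difference came to 0.68 log2 (SE 0.192, adjusted p = 0.0246). At estrus Pdia6 stood at 98.8, 96.7 and 108 FPKM in the HIF2A cKO estrus libraries, against 98.0, 82.8 and 97.8 FPKM in the WT estrus libraries, with overlap.

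P4hb, the isomerase PDI that is also a subunit of the collagen prolyl hydroxylase, stood at 577, 582, 394 and 508 FPKM in the HIF2A cKO diestrus libraries, against 340.3, 456, 395 and 329.7 FPKM in the WT diestrus libraries. HIF2A cKO replicate 3 lay within the WT range and the other 3 above it, and the difference came to 0.43 log2 (SE 0.129, adjusted p = 0.0308). At estrus P4hb stood at 300.2, 290.2 and 307 FPKM in the HIF2A cKO estrus libraries, against 301, 275 and 302 FPKM in the WT estrus libraries. Pdia3, the isomerase that works with the lectin chaperones, stood at 427, 448, 295 and 426 FPKM in the HIF2A cKO diestrus libraries, against 287, 401, 308 and 283 FPKM in the WT diestrus libraries, with replicate 3 again within the WT range and a difference of 0.31 log2 (SE 0.138, adjusted p = 0.111) that did not pass. At estrus Pdia3 stood at 227, 227 and 243 FPKM in the HIF2A cKO estrus libraries, against 219, 198 and 228 FPKM in the WT estrus libraries. Calr, Pdia3, P4hb and Pdia6 were all below their diestrus range at estrus in both genotypes. Pdia6 was called lower at estrus with a change of -1.06 log2 (SE 0.208, adjusted p = 0.000675) in HIF2A cKO and, at -0.51 log2 (SE 0.208, adjusted p = 0.0529), just missed the threshold in WT. Pdia3 was called lower with a change of -0.76 log2 (SE 0.149, adjusted p = 0.000709) in HIF2A cKO and -0.56 log2 (SE 0.149, adjusted p = 0.00651) in WT.

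The 2 ERO1 oxidases, which re-oxidize PDI, had positive estimates at estrus in both genotypes. Ero1l, which is known as a hypoxia-responsive gene and is named here after its values were seen, was higher at estrus in both genotypes. It stood at 14.8, 12.5 and 17.1 FPKM in the HIF2A cKO estrus libraries, against 10.8, 10.7 and 10.1 FPKM in the WT estrus libraries, and at 8.77, 9.14, 7.51 and 8.76 FPKM in the HIF2A cKO diestrus libraries, against 7.92, 8.18, 7.91 and 8.26 FPKM in the WT diestrus libraries. No estrus library overlapped a diestrus library of its genotype, and Ero1l was called higher at estrus by 0.72 log2 (SE 0.0898, adjusted p = 2.08e-05) in HIF2A cKO and 0.35 log2 (SE 0.0898, adjusted p = 0.00539) in WT. At estrus all 3 HIF2A cKO libraries were above the WT libraries. That difference, 0.44 log2 (SE 0.096, adjusted p = 0.176), had an unadjusted p of 0.000517 and did not pass over all genes. Ero1lb ranged from 2.43 to 5.20 FPKM over all libraries and was called higher at estrus in WT by 0.39 log2 (SE 0.153, adjusted p = 0.0426). Its change in HIF2A cKO was 0.31 log2 (SE 0.153, adjusted p = 0.0989), and its interaction was -0.087 log2 (SE 0.216, adjusted p = 0.862). Canx and Pdia4 were called lower at estrus in HIF2A cKO (-0.73 and -0.81 log2), and Canx also in WT (-0.46).

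Left out 1 at a time, several libraries ended the calls of this role. The diestrus genotype calls of Calr, Pdia6 and P4hb were lost without HIF2A cKO replicate 1 or 2 or WT replicate 1 or 4, and that of Calr also without WT replicate 3 (adjusted p of up to 0.103, 0.0862 and 0.103). In WT the falls of Calr and P4hb at estrus and the rise of Ero1lb were lost without any 1 of the 6 estrus libraries or WT diestrus replicate 2 or 3. The fall of Calr was also lost without HIF2A cKO diestrus replicate 1 or 4 (up to 0.164) and the rise of Ero1lb without WT diestrus replicate 4 (up to 0.127). The fall of Canx in WT was lost without WT diestrus replicate 2 or any WT estrus library (up to 0.0953).

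In ER-associated degradation, misfolded proteins are recognized, moved through a channel in the membrane and ubiquitinated for the proteasome. This role had 4 of its 7 genes called higher in HIF2A cKO at diestrus, against 13.8% of all tested genes. Syvn1 encodes HRD1, the ubiquitin ligase of the channel, and stood at 43.2, 48.8, 30.0 and 27.5 FPKM in the HIF2A cKO diestrus libraries, against 20.8, 27.4, 20.4 and 22.3 FPKM in the WT diestrus libraries. All HIF2A cKO libraries were above all WT libraries, although replicate 4 exceeded WT replicate 2 by little, and the difference came to 0.66 log2 (SE 0.156, adjusted p = 0.0118). At estrus Syvn1 stood at 19.8, 21.4 and 22.4 FPKM in the HIF2A cKO estrus libraries, against 17.3, 16.3 and 16.9 FPKM in the WT estrus libraries, again without overlap, and the difference of 0.32 log2 (SE 0.18, adjusted p = 0.781) did not pass. Within HIF2A cKO it was called lower at estrus with a change of -0.75 log2 (SE 0.168, adjusted p = 0.00181). Edem1, which directs mannose-trimmed glycoproteins to degradation, stood at 27.1, 28.6, 15.9 and 18.6 FPKM in the HIF2A cKO diestrus libraries, against 14.2, 17.1, 14.7 and 14.4 FPKM in the WT diestrus libraries, with replicate 3 of HIF2A cKO below WT replicate 2 and the other 3 above all WT libraries. The difference came to 0.51 log2 (SE 0.147, adjusted p = 0.0267). At estrus Edem1 stood at 14.3, 14.4 and 13.6 FPKM in the HIF2A cKO estrus libraries, against 13.99, 14.1 and 14.6 FPKM in the WT estrus libraries.

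Derl1, a derlin of the export channel, stood at 48.7, 48.9, 30.1 and 39.1 FPKM in the HIF2A cKO diestrus libraries, against 31.0, 32.3, 28.5 and 31.5 FPKM in the WT diestrus libraries. Replicate 3 of HIF2A cKO was inside the WT range and the others above it, and the difference came to 0.40 log2 (SE 0.121, adjusted p = 0.0325). At estrus Derl1 stood at 33.2, 31.3 and 33.4 FPKM in the HIF2A cKO estrus libraries, against 33.5, 33.2 and 35.6 FPKM in the WT estrus libraries, and it was called lower at estrus in HIF2A cKO with a change of -0.32 log2 (SE 0.131, adjusted p = 0.049). Derl3, the third derlin and a target of XBP1, was the least expressed of the family and had the largest cycle change of all 36 genes in WT. At estrus it stood at 6.48, 6.96 and 7.46 FPKM in the HIF2A cKO estrus libraries, against 9.30, 9.95 and 8.19 FPKM in the WT estrus libraries, and at diestrus at 3.97, 3.52, 1.91 and 2.82 FPKM in the HIF2A cKO diestrus libraries, against 2.15, 1.25, 1.29 and 1.92 FPKM in the WT diestrus libraries. At estrus every HIF2A cKO library was below every WT library, while at diestrus 3 of the 4 HIF2A cKO libraries were above all WT libraries. Derl3 was called higher in HIF2A cKO at diestrus by 0.60 log2 (SE 0.158, adjusted p = 0.0185), and the estrus difference of -0.35 log2 (SE 0.182, adjusted p = 0.753) did not pass. It was called higher at estrus in both genotypes, by 1.00 log2 (SE 0.171, adjusted p = 0.000242) in HIF2A cKO and 1.95 log2 (SE 0.171, adjusted p = 2.23e-06) in WT, and the interaction was -0.95 log2 (SE 0.241, adjusted p = 0.124).

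Herpud1, a membrane protein of the HRD1 complex, ranged from 36.7 to 75.0 FPKM and passed in no comparison. Derl2 and Sel1l, the adaptor of HRD1, were called lower at estrus in HIF2A cKO (-0.39 and -0.42 log2). Of the diestrus genotype calls of this role, that of Syvn1 held with any 1 library left out. Over the cycle, the rise of Derl3 in both genotypes and the falls of Edem1 and Syvn1 in HIF2A cKO held as well. The diestrus genotype calls of Edem1 and Derl1 were lost without HIF2A cKO diestrus replicate 1 or 2 or WT diestrus replicate 1, 3 or 4 (adjusted p of up to 0.087 and 0.11), and that of Derl3 without HIF2A cKO diestrus replicate 1 or 2 (up to 0.0666). In HIF2A cKO the fall of Derl1 at estrus was lost without any 1 library other than HIF2A cKO diestrus replicate 3 (up to 0.136). The fall of Sel1l was lost without any 1 library other than HIF2A cKO diestrus replicate 3 or 4 or WT diestrus replicate 3 (up to 0.13). The fall of Derl2 was lost without HIF2A cKO diestrus replicate 1 or 2 or HIF2A cKO estrus replicate 2 or 4 (up to 0.123).

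All 3 translocation genes were called higher in HIF2A cKO at diestrus, against 13.8% of all tested genes. Sec61a1 and Sec61b encode subunits of the channel through which new proteins enter the ER, and Ssr1 a subunit of the TRAP complex beside it. Sec61b stood at 343, 384, 183 and 214 FPKM in the HIF2A cKO diestrus libraries, against 140.0, 189.7, 141 and 136 FPKM in the WT diestrus libraries. HIF2A cKO replicate 3 was below WT replicate 2 and the other 3 were above all WT libraries, and the difference came to 0.83 log2 (SE 0.204, adjusted p = 0.0138). At estrus Sec61b stood at 144, 144 and 154 FPKM in the HIF2A cKO estrus libraries, against 149, 132 and 163 FPKM in the WT estrus libraries, with overlap and a difference of -1.4e-05 log2 (SE 0.235, adjusted p = 1). Ssr1 stood at 75.6, 81.4, 44.8 and 67.5 FPKM in the HIF2A cKO diestrus libraries, against 37.8, 51.6, 38.9 and 39.6 FPKM in the WT diestrus libraries, in the same arrangement, with a difference of 0.65 log2 (SE 0.154, adjusted p = 0.0124). At estrus Ssr1 stood at 24.7, 25.6 and 24.9 FPKM in the HIF2A cKO estrus libraries, against 27.8, 26.0 and 28.7 FPKM in the WT estrus libraries, and all HIF2A cKO libraries were below all WT libraries. It had the largest fall of the 36 genes at estrus in HIF2A cKO, -1.36 log2 (SE 0.166, adjusted p = 1.83e-05), and was also called lower in WT, with a change of -0.58 log2 (SE 0.166, adjusted p = 0.00952). Sec61a1 stood at 206, 210.0, 119 and 148 FPKM in the HIF2A cKO diestrus libraries, against 109, 132, 96.2 and 106 FPKM in the WT diestrus libraries, with a difference of 0.59 log2 (SE 0.157, adjusted p = 0.0197). At estrus it stood at 106, 109.8 and 105 FPKM in the HIF2A cKO estrus libraries, against 107, 102 and 109.6 FPKM in the WT estrus libraries, and these groups overlapped. The Sec61a1 call was lost without HIF2A cKO diestrus replicate 1 or 2 (adjusted p of up to 0.0702), and those of Sec61b and Ssr1 held with any 1 library left out.

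The comparison of HIF2A cKO with WT at diestrus asked whether the labelled genotype changes the module in the luteal stage. In all, 15 of the 36 genes were called higher and 0 lower, against 13.8% higher, 10.0% lower and 23.9% in either direction among all tested genes. The log2 difference was above 0 in all 36 genes, with a median of 0.42 (1.34-fold), against a median of 0.015 over all genes. In limma 26 genes had an unadjusted p under 0.05, all higher, against 5593 of the 14278 tested genes in either direction. However, only Eif2ak3 and Syvn1 had every HIF2A cKO library above every WT library (2 of 36, against 8.80% of all genes). The fit of all 14 libraries uses a common spread per gene for both stages. The median coefficient of variation of the members was 24.7% in HIF2A cKO and 16.9% in WT at diestrus. At estrus it was 5.41% in HIF2A cKO and 7.64% in WT. With the 8 diestrus libraries fitted alone, 0 of the 36 genes and 3.12% of all tested genes were called. In that limma fit 18 of the 36 had an unadjusted p under 0.05, and the 15 genes had adjusted p from 0.056 to 0.137. The count was 5 without HIF2A cKO diestrus replicate 1, 4 without replicate 2 and 30 without replicate 3. Of all tested genes 12.3%, 10.3% and 35.3% were called in these fits, in either direction. Counted in either direction, the members were thus called at about the share of all genes without HIF2A cKO replicate 1 or 2. All members called there were higher, and the share of all genes called higher is not given for these fits. The count was 7 without WT diestrus replicate 1, 9 without replicate 3 and 7 without replicate 4, against 14.6%, 18.3% and 15.4% of all tested genes. The main fit, which gave the 15 calls, used no pairing. The labels do not say that equal replicate numbers share anything. By a rule on their residuals, the diestrus libraries were also compared as pairs. With the number as a block 26 genes were called, all of the 15 among them, against 33.5% of all tested genes. The 11 gained were Hyou1, Creld2, Dnajb11, Dnajc3, Hspa5, Manf, Pdia4, Herpud1, Sel1l, Derl2 and Ppp1r15a. With the block in the diestrus libraries alone 12 were called, against 15.4% of all tested genes. Of these 12, 9 were among the 15 and the others were Hyou1, Creld2 and Derl2.

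Within the same-number pairs at diestrus, HIF2A cKO was above WT in 36, 36, 26 and 35 of the 36 genes for numbers 1 to 4. The median differences were 0.73, 0.48, 0.09 and 0.48 log2, against 0.024, 0.0118, 0.0195 and 0.00698 over all tested genes. Each pair sets a single library against another, and the 36 genes share those libraries, so these counts are not independent. HIF2A cKO was the higher in all 4 pairs for 26 genes, in 3 pairs for 9 and in 2 pairs for Ero1lb. The pair numbered 3 had the smallest median. Its WT library had the lowest value of the 8 in 14 genes, and its HIF2A cKO library in 8. At estrus HIF2A cKO was above WT in 21, 28 and 13 genes for numbers 1, 2 and 4. The medians were 0.012, 0.10 and -0.096 log2, against -0.00512, 0.0127 and 0.0128 over all tested genes.

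**Figure D3:**
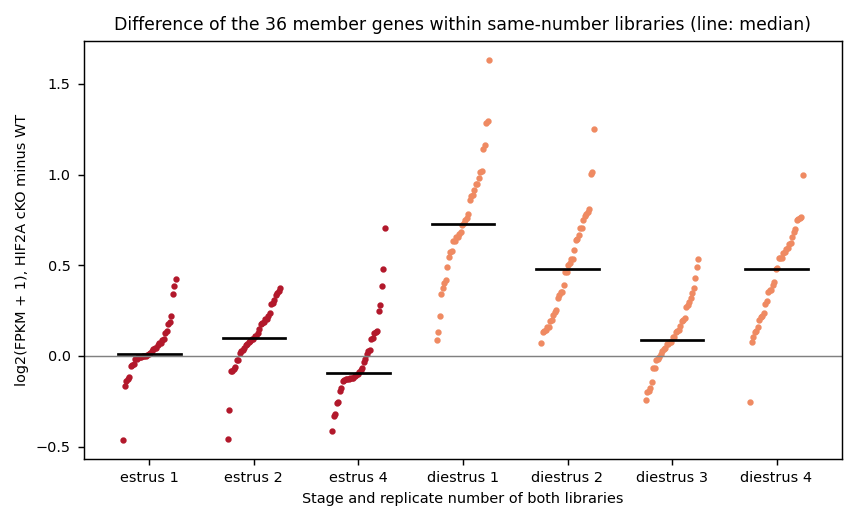
Each point is a member gene, placed by its log2(FPKM + 1) in HIF2A cKO minus that in the WT library of the same replicate number, for 3 numbers at estrus and 4 at diestrus, and each line is the median of the 36 genes. The diestrus points numbered 1, 2 and 4 lie almost wholly above 0 (medians 0.73, 0.48 and 0.48), and those numbered 3 and the estrus points lie around it.

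At estrus the same comparison of genotypes gave no call among the 36 genes, against 0.0700% of all genes called higher, 0.0350% lower and 0.105% in either direction. In limma 1 gene, Ero1l, had an unadjusted p under 0.05, against 1053 of the 14278 tested genes. The median difference was 0.025 log2, against 0.0059 over all genes. With quantile normalization the median of the members turned to -0.024. Fitting the 6 estrus libraries alone called Ddit3 and Syvn1 (and 3.26% of all tested genes), and library weights called Derl3 and Ero1l (and 9.32%). Without overlap, HIF2A cKO was above WT in Ddit3, Trib3, Calr, Ero1l, Herpud1 and Syvn1 (6 genes, against 14.4% of all genes) and below it in Derl3 and Ssr1 (2 genes, against 12.0%).

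**Figure D4:**
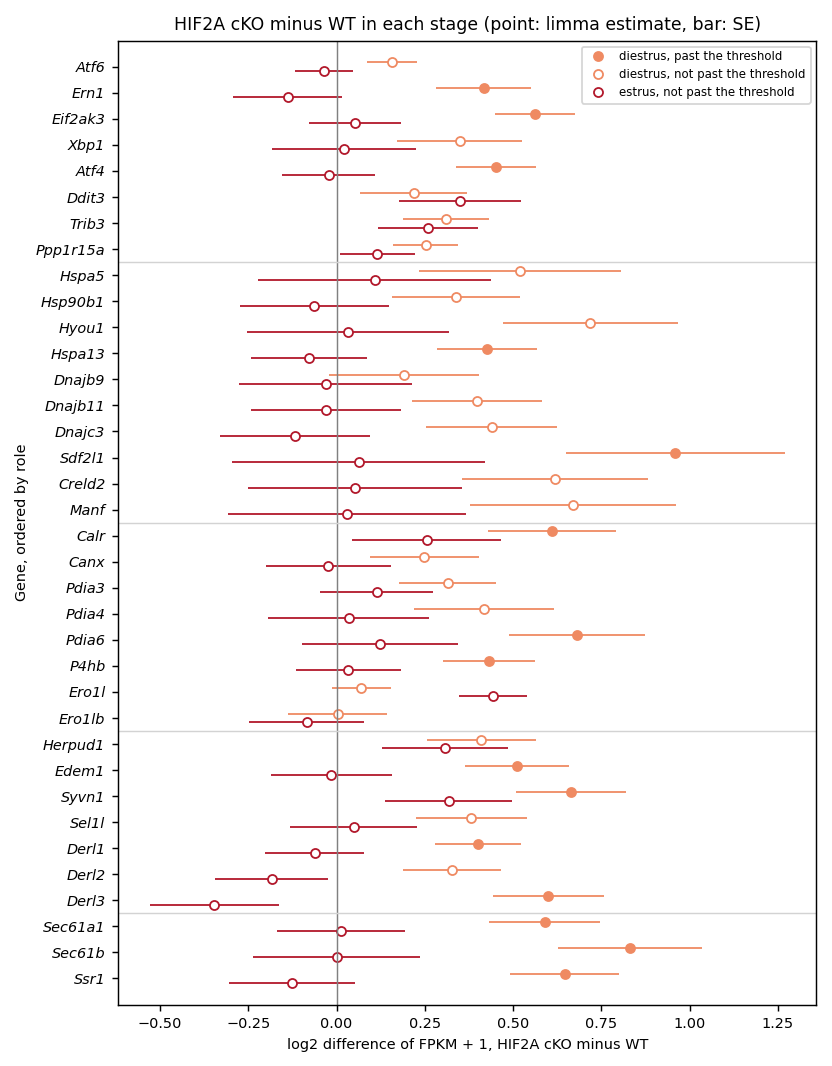
Points give the limma estimate of the log2 difference, HIF2A cKO minus WT, at diestrus and at estrus for each member gene, and bars its SE. Filled points passed the adjusted threshold of 0.05. All 36 diestrus estimates lie above 0 and 15 are filled, and the estrus estimates scatter around 0 with none filled.

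Over the cycle, many folding genes were called lower at estrus in HIF2A cKO, while Ddit3, Ppp1r15a, Ero1l and Derl3 were called higher in both genotypes. In HIF2A cKO 26 of the 36 genes were called lower and these 4 higher at estrus, against 36.5% lower, 25.5% higher and 62.0% in either direction among all tested genes. The median change was -0.68 log2, against -0.082 over all genes. In 20 genes every HIF2A cKO estrus library was below every diestrus library and in 4 above (37.0% and 26.1% of all genes). Of the 30 calls, 24 were kept under all 29 alternatives, and the others were Eif2ak3, Hspa5, Dnajc3, Sel1l, Derl1 and Derl2. Eif2ak3 was lost with the HIF2A cKO libraries fitted alone (adjusted p = 0.0532, and 6.38e-06 to 0.0532 over all alternatives). Hspa5 was lost without the 2 libraries with the highest level of the ribosomal precursor Rn45s (adjusted p = 0.0597, and 9.25e-07 to 0.0597 over all alternatives).

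In WT 7 genes were called lower at estrus (Hsp90b1, Dnajb11, Calr, Canx, Pdia3, P4hb and Ssr1) and 6 higher (Ern1, Ddit3, Ppp1r15a, Ero1l, Ero1lb and Derl3). Among all tested genes 34.1% were lower, 23.0% higher and 57.2% either, so neither share of the members exceeded the background. The median change was -0.17 log2, against -0.091 over all genes. Without overlap, 13 genes were below and 7 above their diestrus range at estrus (36.9% and 24.2% of all genes). Hsp90b1, Pdia3, Ssr1, Ern1, Ppp1r15a, Ero1l and Derl3 kept their call under all 29 alternatives. With median-of-ratios scaling the counts were 3 lower and 6 higher, against 54.8% of all tested genes in either direction. With quantile normalization they were 9 lower and 6 higher, against 56.7%. The total of 13 calls became 21 without HIF2A cKO diestrus replicate 3 (60.3% of all tested genes). It became 8 without any 1 of the HIF2A cKO estrus libraries (54.9% to 55.3%). It became 7 without WT diestrus replicate 2 (52.2%) or any 1 of the WT estrus libraries (48.9% to 49.6%).

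**Figure D5:**
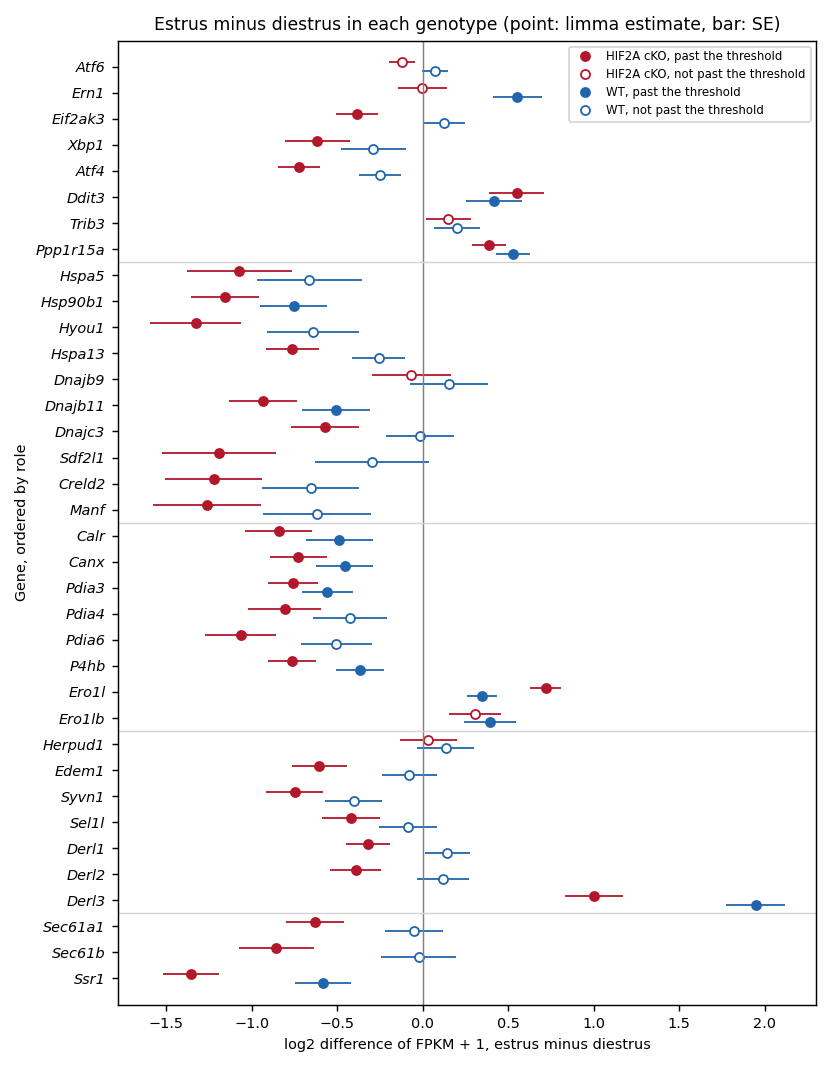
Points give the limma estimate of the log2 change, estrus minus diestrus, in HIF2A cKO and in WT for each member gene, and bars its SE. Filled points passed the adjusted threshold of 0.05. Most HIF2A cKO points are filled and below 0, the WT points lie closer to 0, and Derl3 stands apart at 1.00 in HIF2A cKO and 1.95 in WT.

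The interaction asks whether the cycle change differed between the genotypes, and no member was called, against 0.0140% of all genes higher, 0.0210% lower and 0.0350% in either direction. In limma 12 genes of the module had an unadjusted p under 0.05, against 2511 of the 14278 tested genes. Of the 12, 11 had a lower and 1, Ero1l, a higher change in HIF2A cKO. The median interaction was -0.42 log2, against -0.012 over all genes. Without HIF2A cKO diestrus replicate 3, 13 members were called, against 8.31% of all tested genes, and without any other single library no member was. A larger fall in HIF2A cKO than in WT was therefore not established by this test for any single gene. The 2 cycle comparisons and the 2 genotype comparisons share their diestrus libraries.

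Lists of further genes of these pathways held more genes called higher than lower in HIF2A cKO at diestrus, to be read against the 13.8% and 10.0% of all genes. Of 10 oligosaccharyltransferase genes, which attach N-glycans, 6 were called higher in HIF2A cKO and 0 lower (median 0.44 log2), with Rpn1, a subunit that binds the ribosome, at 120.5 ± 29.3 FPKM in HIF2A cKO and 76.6 ± 11.2 in WT (SD, n = 4 each; 0.62 log2, adjusted p = 0.0173). Among 12 COPII coat genes, which carry cargo out of the ER, 6 were higher and 0 lower, with Sec13 at 0.64 log2 (adjusted p = 0.0181). Among 21 further translocation genes 6 were higher and 1 lower, with Srprb, a subunit of the signal recognition particle receptor, at 0.69 log2 and Ssr2 at 0.64 log2. Of 27 further folding enzymes 10 were higher and 2 lower, with the prolyl isomerase Fkbp11 at 1.09 log2 and the collagen chaperone Serpinh1 at 0.81 log2. Of 23 further degradation genes 7 were higher and 1 lower. Of 16 further stress transducers 5 were higher and 1 lower, with Creb3l1, a membrane-bound factor of secretory cells, at 0.74 log2. Of 21 targets of ATF4 and CHOP 5 were higher and 1 lower, with Cebpb at 1.58 log2 and Atf5 at 1.43 log2. At estrus no gene of these 7 lists was called between genotypes.

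Over the cycle all tested genes were called lower more often than higher (36.5% against 25.5% in HIF2A cKO and 34.1% against 23.0% in WT), and the counts of these lists are to be read against that. The further degradation genes had 9 of 23 lower and 6 higher in HIF2A cKO, and 4 lower and 5 higher in WT. All 10 oligosaccharyltransferase genes were called lower at estrus in HIF2A cKO and 3 in WT. The COPII genes had 8 of 12 lower in HIF2A cKO and 8 of 12 in WT, and the further translocation genes 17 of 21 in HIF2A cKO and 11 of 21 in WT, with none higher. The further folding enzymes had 21 of 27 lower and 4 higher in HIF2A cKO, and 16 lower and 3 higher in WT. Among them Fkbp14, a collagen-directed prolyl isomerase, fell by 3.29 log2 in HIF2A cKO and by 2.91 log2 in WT at estrus. Of the ATF4 and CHOP targets 11 of 21 were lower and 6 higher in HIF2A cKO, and 7 lower (33.3%) and 6 higher (28.6%) in WT, near the background. The serine synthesis enzyme Phgdh fell by 2.35 log2 in HIF2A cKO and by 2.11 log2 in WT.

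Cell type markers moved with the module in part. The marker counts are to be read against the shares of all tested genes. Between genotypes at diestrus 13.8% were called higher in HIF2A cKO and 10.0% lower. At estrus against diestrus 25.5% were higher and 36.5% lower in HIF2A cKO, and 23.0% and 34.1% in WT. The summed FPKM of 10 epithelial markers was 1013, 1095, 581 and 841 in HIF2A cKO diestrus replicates 1 to 4, against 688, 652, 488 and 549 in WT diestrus. HIF2A cKO replicates 1, 2 and 4, the highest of the 8 in the module's sum, were also the highest in this one. Within WT diestrus the orders differed, with replicate 2 highest in the module's sum and replicate 1 in the epithelial sum. Of the 10 markers, 2 (Elf3 and Krt7) were called higher in HIF2A cKO at diestrus. At estrus the sum was 1468 to 1661 in HIF2A cKO and 1153 to 1398 in WT. There 8 markers in HIF2A cKO and 9 in WT were called higher than at diestrus, while many folding genes were called lower in HIF2A cKO. The sum of 8 gland markers was 72.3 to 94.2 in HIF2A cKO diestrus and 84.7 to 122 in WT diestrus, with 2 of 5 tested called lower and Prss28 under 0.5 FPKM everywhere. At estrus this sum was lower, as many folding genes were in HIF2A cKO. It was 27.3 to 29.8 in HIF2A cKO and 31.6 to 35.8 in WT, and 3 of the 5 tested were called lower in each genotype. Of 8 stroma markers, 5 in HIF2A cKO and 6 in WT were called lower at estrus, with 2 higher in HIF2A cKO and 1 in WT. Of 8 macrophage markers, 7 were called higher at estrus in each genotype. The sum of 11 plasma and B cell markers, a cell type rich in these genes, was 129.6 to 165 in HIF2A cKO diestrus and 114 to 166 in WT diestrus. Of 7 tested, Irf4 and Sdc1 were called higher and none lower, but the median difference of the 7 was -0.12 log2, with the defining B cell marker Ms4a1 under 0.5 FPKM everywhere. The ribosomal precursor Rn45s stood at 1890 FPKM in HIF2A cKO diestrus replicate 4 and 819 in HIF2A cKO estrus replicate 1, and at 208 to 578 in the others. Without those 2 libraries 10 members were called higher in HIF2A cKO at diestrus, against 23.4% of all tested genes in either direction. Of the markers tested at diestrus, 2 of 8 for stroma were called higher and 2 lower, 1 of 7 for endothelium higher, 3 of 5 for mast cells lower, and none for smooth muscle, macrophages or neutrophils. The smooth muscle sum was 6268, 5167, 5033 and 4062 in HIF2A cKO diestrus replicates 1 to 4, and 3994, 4977, 4048 and 4920 in WT diestrus. The part of these markers in the differences of the module was not tested.

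Exons of 12 member genes overlap those of another gene in GENCODE M21, and in 7 the partner codes for a protein (Ddit3 with Mars, Derl2 with Mis12, Manf with Dcaf1 and Rbm15b, Pdia3 with Catsper2, Pdia6 with Atp6v1c2, Ppp1r15a with Tulp2 and Syvn1 with Mrpl49). The use of strand in the estimation of FPKM is not given in the sources used here, so that reads from such partners cannot be told apart.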

How the data were processed

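RNA was column-purified with DNase treatment before Illumina TruSeq library preparation, per the labels' protocols. TopHat2 2.0.4 and Cufflinks 2.0.2 were used with mm10, per the submitters' processing notes, which give no role for each. The authors deposited a single table of FPKM values with 3 decimals. Not given in the sources used here are the annotation, options and any scaling, and FPKM divides by the library total, so abundant genes can lower others.

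All 14 columns matched a sample by name. Values were tested as log2(FPKM + 1) with limma 3.58.1 (R 4.3.3; eBayes with trend, Benjamini-Hochberg over all genes), which understates changes of low genes. Genes needed 1 FPKM or more in 3 or more libraries. Left out were 11 genes, none a member, listed at 0 throughout a group while averaging 50 FPKM or more elsewhere, since such a 0 can be a failed estimate. The fit was tested on simulated data.

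The members, lists and tests were chosen with earlier results of these data known. Values in every library are given for members called between genotypes, for the 2 largest called cycle changes of each role, and for Xbp1, Atf4, Ddit3 and Hspa5. Of each other list, at most the 2 largest changes are named. The main fit and the permutation test of Epas1 used no pairing. As an alternative, the diestrus libraries were compared as pairs by replicate number, under a rule that every correlation be over 0.1. The labels do not say what equal numbers share. The residuals of same-number libraries correlated at 0.321, 0.115, 0.622 and 0.217 for numbers 1 to 4. Those of HIF2A cKO diestrus replicate 2 correlated no less with a WT diestrus library of another number. Pairing was not shown at estrus or between stages. Alternatives were other pseudocounts, filters, scalings and variance models, the libraries compared alone, library weights, a replicate block and left-out libraries, and the block in the compared libraries alone was added after the data were seen. Promoter sequences are from RefSeq, and gene coordinates were checked in GENCODE M21. Python 3.11.15 was used for sequences and figures. The level of 1 cell type marker is not reported here.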

Additional observations from a re-analysis of the deposited data

Results flagged for a closer look

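In 9 of the 72 groups of 4 diestrus libraries, 1 library stood apart from the other 3 by a gap beyond Dixon's 95% critical value, and chance flags about 1 in 20 groups. Of the HIF2A cKO diestrus libraries, replicate 3 was apart at the low end in Atf4 (112.44 FPKM), Hsp90b1 (269.881 FPKM), Canx (102.832 FPKM) and Pdia3 (295.035 FPKM), and replicate 4 was low in Ern1 (8.56 FPKM). Among the WT diestrus libraries, replicate 2 was apart at the high end in Canx (158.045 FPKM), Sec61b (189.699 FPKM) and Ssr1 (51.6 FPKM), and replicate 3 was low in Sel1l (25.361 FPKM). These genes share their libraries, so the flags are not independent.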

How the results depend on the processing

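Between genotypes at diestrus, the count of 15 genes became 9 with no filter, 0 with the diestrus libraries fitted alone, 33 with library weights, 26 with the replicate block and 27 without both diestrus libraries numbered 3, and ran from 4 to 30 with 1 library left out. The share of all tested genes called moved as well, from 23.9% to 13%, 3.12%, 55.2%, 33.5% and 32.3% in the same order. With 1 library left out it ran from 10.3% to 35.3%. At estrus the count of 0 became 2 with the libraries alone and 2 with library weights (3.26% and 9.32% of all tested genes). For the cycle change in WT, 13 became 7 with no filter, 22 with library weights, 20 with the replicate block and 21 without both numbered 3, and ran from 7 to 21 with 1 library left out. The share of all tested genes went from 57.2% to 38.1%, 67.9%, 61.5% and 61.4% in the same order. With 1 library left out it ran from 48.9% to 60.3%. In HIF2A cKO the 30 calls stayed within 1.5 times, from 26 to 30 with 1 library left out (55.2% to 63.7% of all tested genes). The interaction count of 0 became 31 with library weights, 2 with the replicate block, 2 with the block in the compared libraries alone and 8 without both numbered 3, and ran from 0 to 13 with 1 library left out. The share of all tested genes went from 0.035% to 36.6%, 3.24%, 3.24% and 8.5% in the same order. With 1 library left out it ran from 0% to 8.31%. Estimates near 0 changed sign for Xbp1 between genotypes at estrus (-0.020 with quantile normalization, -0.032 without HIF2A cKO estrus replicate 4, -0.045 without WT estrus replicate 2, range -0.045 to 0.103 with 1 library left out), Atf4 in the same comparison (0.00025 with library weights, 0.024 without WT estrus replicate 1, range -0.058 to 0.024) and the interaction of Ddit3 (-0.0086 without HIF2A cKO diestrus replicate 3, range -0.0086 to 0.235). The fit without the filter tests more genes. The fits of compared libraries have fewer samples and take the spread from those libraries only. In the fit of all 14 libraries, each gene has a common spread for estrus and diestrus. The part of these points in the changed counts was not tested. No call changed its direction. The replicate numbers were not shown to pair libraries at estrus, where same-number residuals correlated at 0.0805, 0.0958 and -0.0475, or between stages, so the block values there rest on a shared number. As the depth is unknown, counting error is not given, which bears most on low genes such as Trib3, Derl3 and Ero1lb.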
